A study of Gallus gallus with 18 samples.

Results

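The heat shock proteins, their J-domain partners and the other protein-folding chaperones of the chicken were followed as 1 group of 82 genes among the 23741 genes measured. Members were chosen by gene name: those that begin with HSPA, HSPB, HSPD, HSPE, HSPH, HSP90, HSP25, DNAJA, DNAJB or DNAJC, and BAG, CCT or HSF followed by a number, with HSPBAP1 left out. The names gave 26 DNAJC, 10 DNAJB and 4 DNAJA genes, 10 HSP70 and HSP110 genes, 8 small heat shock protein genes, 7 CCT subunit genes, 5 heat shock factors, 5 BAG genes, 3 HSP90 genes, and HSPD1 and HSPE1. HSPBP1 and HSF2BP entered by their first letters only, and so did HSPB11, which the deposited annotation describes as an intraflagellar transport protein and which is counted with the small heat shock genes by its name. No gene of the table is named HSP25, DNAJB1 or BAG6.

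Cells keep new and damaged proteins from clumping with these chaperones. HSP70 proteins bind unfolded stretches and are driven by DNAJ partners, HSP90 proteins finish the folding of signalling proteins, small heat shock proteins hold unfolded proteins without using ATP, and the CCT ring and the HSPD1-HSPE1 chamber fold proteins inside a cage. Heat shock factors switch on the cytosolic heat shock genes when unfolded proteins gather, whereas HSPA5, HSP90B1 and their partners serve the endoplasmic reticulum, through which liver cells export large amounts of plasma protein. The sperm line uses chaperone genes of its own, and DNAJB8 and DNAJB13 are known from the mammalian testis.

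RNA with polyA tails was sequenced from Arbor Acres breeder chickens and their young, in 6 groups of 3 libraries. Roosters ate 0.25 mg (FCON, the control) or 5 mg (FE, the excess) of folic acid per kg of feed from hatching. Liver was taken from the roosters at 35 weeks, sperm at 35 weeks (1 FE sperm library is labelled 36 weeks), and liver from their offspring at 1 day of age, where 1 library pools the RNA of 4 chicks and FCON or FE names the diet of the father. The hens mated to them ate feed with folic acid in both arms. Replicates are, as labelled, different roosters or pools, and p measures the spread between these few libraries. The 3 rooster FCON livers differed least from each other, and the data cannot show that they come from different birds. Every p that uses these livers rests on that small spread.

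Library totals ran from 16979085 to 43130067 estimated counts. Nuclear ribosomal RNA genes took 3.02 to 8.75% of the counts in rooster FCON liver and 32.8 to 60.5% in rooster FE liver, and 2.35 to 50.2% in the other groups. The 3 libraries labelled rooster FCON liver go against that label: genes of the W chromosome, which hens carry and roosters lack, held 1015 to 1117 CPM (counts scaled to the library total) in them, against 0 to 2.07 in rooster FE liver. The offspring pools numbered 2 held 963 (FCON) and 1299 (FE), and the other pools at most 9.34. All 3 libraries of the group are affected, so no result on rooster FCON liver can be given without them, and diet, the W signal and the ribosomal share cannot be told apart in rooster liver. Hepatocyte markers followed the tissue labels: 17 of 17 tested were lower in sperm than in rooster liver in each diet, and spermatid and sperm markers were higher in sperm for 11 of 12 tested (FCON) and 15 of 15 (FE).

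Levels below are scaled FPKM, which is the deposited FPKM (fragments corrected for gene length and library total) divided by a TMM factor per library, and 3 values are always given in the order of replicates 1 to 3. On this scale 52 of the 82 members reached 1 in all 18 libraries, and 7 reached it in none. A member is called when its Benjamini-Hochberg adjusted p over all genes tested, from edgeR's quasi-likelihood test, is under 0.05. Fold changes are log2 with their standard error (SE).

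In rooster liver HSPB9, BAG3, HSPA2, HSPB1 and HSP90AA1 were higher under FE, and HSPA5, DNAJC3, DNAJC1 and DNAJB11, which serve the endoplasmic reticulum, were lower. Of 68 members tested, 16 were called higher and 11 lower, which is 39.7% of them, while 41.5% of all 10291 genes tested were called (20.4% higher and 21.1% lower). The share of members called was thus close to that of all genes, and the median log2 value was -0.01 for members and -0.03 for all genes. FE and FCON values did not overlap for 19 members that were higher and 22 that were lower, and for 58.6% of all genes tested. Among called members the values ran from HSPB9, HSPA2, HSPB1 and BAG3 at more than 2.7 to DNAJC13 and DNAJC3 at under -1.2.

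Among the HSP70 genes, HSPA2 (chromosome 5, 53058059 to 53060378, minus strand), which encodes a cytosolic HSP70, stood at 21.8, 24.0 and 22.6 in FCON and at 73.3, 271 and 192 in FE. All FE values lay above all FCON values, and FE library 1, which also had the highest ribosomal share (60.5%), was the lowest of the FE livers. The log2 difference was 3.06 (SE 0.44, adjusted p = 0.00201, edgeR). HSPA8, the constitutive cytosolic HSP70 and the HSP70 member with the highest level in every library, stood at 150, 147 and 152 in FCON and at 111, 330 and 249 in FE. Its groups overlapped through FE library 1, and it was not called (log2 0.71, SE 0.35, adjusted p = 0.145, edgeR; negative, at -0.39, on the deposited FPKM scale). HSPA4, an HSP110-type exchange factor, rose from 5.48, 5.22 and 6.02 to 9.13, 7.60 and 8.11 (log2 0.66, SE 0.12, adjusted p = 0.00500, edgeR), without overlap, but was at -0.27 on the deposited FPKM scale. HSPH1, another exchange factor, was too low to be tested here, with 0.414, 0.538 and 0.547 in FCON and 1.44, 2.59 and 4.00 in FE. Its model shares 8018 bases with LOC107052088 on the other strand.

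HSP90AA1 (chromosome 5, 49679064 to 49684241, minus strand), the stress-inducible cytosolic HSP90, stood at 40.8, 42.2 and 43.0 in FCON and at 66.6, 254 and 178 in FE. The groups did not overlap, and FE library 1 was again the lowest (log2 2.07, SE 0.43, adjusted p = 0.00915, edgeR). HSP90AB1, the constitutive cytosolic form, went the other way, from 4.31, 3.94 and 4.02 to 1.18, 2.14 and 2.08. No FE value reached the lowest FCON value (log2 -1.08, SE 0.26, adjusted p = 0.0148, edgeR). HSP90B1, the endoplasmic reticulum form, was not called, and FE library 1, at 50.2, lay above FCON while the other FE libraries, at 24.7 and 29.3, lay below it.

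Of 5 small heat shock genes tested, HSPB11 included, 3 were called higher and none lower, beside 20.4% and 21.1% of all genes tested. HSPB9 (chromosome 27, 7654562 to 7655554, plus strand), a small heat shock protein known from the testis in mammals, had the largest rise of all members. It stood at 7.57, 6.31 and 8.33 in FCON and at 104, 203 and 157 in FE. The lowest FE liver was thus more than 10 times the highest FCON liver (log2 4.47, SE 0.27, adjusted p = 6.68e-05, edgeR). HSPB1 (chromosome 19, 4403293 to 4405185, minus strand), the widely expressed small heat shock protein that binds unfolded clients, stood at 5.24, 5.31 and 5.11 against 41.4, 28.9 and 32.6 in FE. Here FE library 1 was the highest (log2 2.80, SE 0.18, adjusted p = 8.06e-05, edgeR). HSPB8, the partner of BAG3 in selective autophagy, rose by 1.91 on the log2 scale (SE 0.28, adjusted p = 0.00223, edgeR) from a level near 1.

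BAG3 (chromosome 6, 31229092 to 31247001, plus strand), which links HSP70 to HSPB8 and to autophagy, stood at 2.14, 2.04 and 2.03 in FCON and at 10.2, 44.9 and 30.2 in FE. The groups were far apart, with FE library 1 the lowest of its group (log2 3.86, SE 0.51, adjusted p = 0.00142, edgeR). BAG5, which acts on HSP70 as a nucleotide exchange factor, rose by 0.98 (SE 0.23, adjusted p = 0.0132, edgeR), while BAG1 and BAG4 overlapped between diets. The heat shock factors tested did not pass: HSF1 was at 0.19 (SE 0.20), HSF2 at -0.30 (SE 0.49) and HSF3, a factor of birds, at 0.29 (SE 0.17), with adjusted p of 0.479, 0.648 and 0.202 (edgeR). HSF1 and HSF3 were negative on the deposited FPKM scale, and HSF2 was positive, at 0.091, without rooster FE library 1. HSF4 and HSF5 were not tested.

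**Figure D1:**
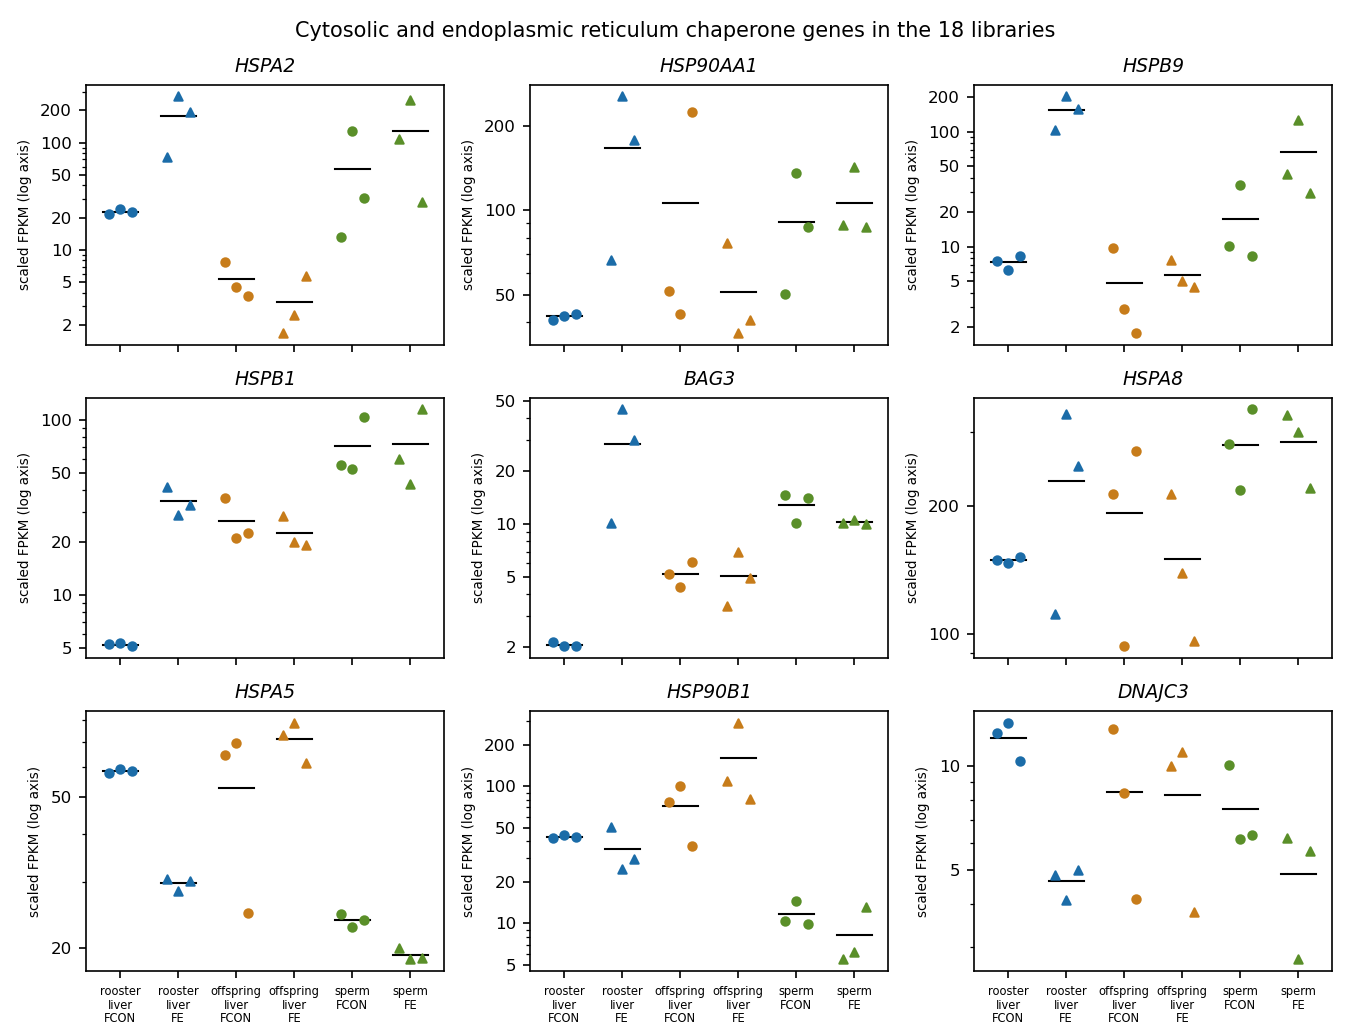
Scaled FPKM on a log axis for 9 members in the 6 groups, with 1 point per library (circles FCON, triangles FE) and a bar at the mean of 3. HSPA2, HSP90AA1, HSPB9, HSPB1 and BAG3 are higher in rooster FE liver than in rooster FCON liver without overlap, HSPA5 and DNAJC3 are lower without overlap, and HSPA8 and HSP90B1 overlap. Of all genes tested, 58.6% did not overlap between these 2 groups.

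The J-domain genes moved in both directions. All 4 DNAJA genes were positive and 3 were called higher, beside 20.4% of all genes tested. However, DNAJA3, which was called (0.35, SE 0.10), and DNAJA2, which was not, were negative on the deposited FPKM scale, at -0.58 and -0.75. The DNAJA3 model shares 3602 bases with LOC107054649 on the other strand. DNAJA1, the main cytosolic partner of HSPA8, stood at 9.68, 9.22 and 9.87 in FCON and at 20.7, 23.5 and 23.8 in FE. That more than doubling was free of overlap (log2 1.33, SE 0.10, adjusted p = 0.000145, edgeR). DNAJA1 lies on the Z chromosome, which roosters carry in a pair and hens singly, and the 412 tested genes of Z had a median of 0.51, with 158 called higher and 48 lower. DNAJC12, a cytosolic partner for aromatic amino acid hydroxylases, was at 9.27, 9.20 and 9.23 in FCON and at 25.9, 28.3 and 29.5 in FE. Its groups were tight and far apart (log2 1.69, SE 0.09, adjusted p = 4.32e-05, edgeR). Also called higher were DNAJC8, which is linked to splicing (1.57, SE 0.18), DNAJA4 (1.42, SE 0.34) and DNAJB6 (0.39, SE 0.12, but -0.52 on the deposited FPKM scale and not called without any 1 of the FCON livers or without FE library 3). Genes called lower were DNAJC13, an endosomal protein (-1.30, SE 0.24), DNAJC16 (-1.12, SE 0.22), the mitochondrial DNAJC15 (-1.09, SE 0.23), DNAJB12 of the endoplasmic reticulum membrane (-0.62, SE 0.14) and HSPBP1, an exchange factor of HSP70 (-0.79, SE 0.09).

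Grouping members by their compartment was done after values had been seen. Beside 21.1% of all genes tested that were called lower and 20.4% higher, the 8 genes grouped under the endoplasmic reticulum had 4 called lower and none higher, with a median of -0.83. They were HSPA5, HSPA13, HSP90B1, DNAJB9, DNAJB11, DNAJC1, DNAJC3 and DNAJC10. HSP90B1, HSPA13, DNAJC10 and DNAJB9 were not called, and DNAJB9, at -0.01, turned positive under relative log expression scaling, under DESeq2 and with limma on equal medians. That grouping leaves out the membrane J proteins DNAJB12, given above, DNAJB14 (-0.21, SE 0.24) and DNAJC18 (0.03, SE 0.15), so its count depends on the choice of genes. HSPA5 (chromosome 17, 9890854 to 9894906, minus strand), the HSP70 of the endoplasmic reticulum also called BiP, stood at 58.1, 59.3 and 58.8 in FCON and at 30.5, 28.4 and 30.2 in FE. Both groups were tight and did not overlap (log2 -0.89, SE 0.08, adjusted p = 0.000218, edgeR). DNAJC3, which restrains the stress kinase PERK and serves HSPA5, fell from 12.4, 13.3 and 10.3 to 4.85, 4.10 and 5.00 (log2 -1.28, SE 0.14, adjusted p = 0.000647, edgeR). DNAJC1 fell by 1.04 (SE 0.14, adjusted p = 0.00137, edgeR). DNAJB11, a cofactor of HSPA5, fell by 0.96 (SE 0.32, adjusted p = 0.0481, edgeR), a call that was lost under relative log expression scaling and without any 1 of the FCON libraries or FE libraries 2 or 3.

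In mitochondria, HSPD1, the HSP60 chamber, rose from 53.4, 53.8 and 51.8 to 90.2, 87.9 and 85.8 (log2 0.82, SE 0.07, adjusted p = 0.000218, edgeR), without overlap, but was at -0.15 on the deposited FPKM scale. HSPE1, its HSP10 lid, was lower under FE, at 187, 185 and 180 against 103, 120 and 122 (log2 -0.59, SE 0.10, adjusted p = 0.00309, edgeR). Their gene models lie on opposite strands and share 9267 bases, and no strand marking is stated, so reads of the shared stretch cannot be told apart. HSPA9, the mitochondrial HSP70, differed by 0.26 (SE 0.08, adjusted p = 0.0346, edgeR), but was at -0.69 on the deposited FPKM scale and was not called without any 1 of the FCON livers. Of the 7 CCT subunit genes none was called by edgeR, with 3 at an unadjusted p under 0.05, and DESeq2 called 1 higher and 1 lower. CCT2 was nearest to a call, at 21.6, 20.9 and 21.9 against 15.1, 17.4 and 17.0 (log2 -0.29, SE 0.10, adjusted p = 0.0523, edgeR).

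Some partner genes outside the name rule were also called, where 20.4% of all genes tested were called higher and 21.1% lower. Of 10 stress-induced genes tested, 7 were called higher and none lower, with HMOX1, a heme-degrading stress enzyme, at 3.38 and JUN, an immediate early transcription factor, at 1.98. Among 21 co-chaperones 5 were higher and 3 lower, HSPBP1 being one of the latter, and FKBP4, an HSP90 co-chaperone, rose by 1.03. Of 13 prefoldin and CCT partners 3 were higher, with TBCB, a tubulin-folding factor, at 0.91 and TCP1, the alpha subunit of the CCT ring, at 0.34. Of 15 organelle chaperones 3 were higher and 4 lower, and PDIA3, a disulfide isomerase of the endoplasmic reticulum, fell by 1.42 while CLPX, a mitochondrial unfoldase, rose by 1.08. LOC107049075, which the deposited annotation describes as DNAJB1, the heat-inducible partner of HSP70, was looked at after its values were seen. It stood at 2.64, 2.91 and 2.42 in FCON and at 5.25, 13.8 and 11.5 in FE (log2 2.03, SE 0.34, adjusted p = 0.00382, edgeR). LOC425431, described as DNAJA1, was not called (0.38, SE 0.23, adjusted p = 0.217, edgeR). Nor were LOC101751456, described like CCT3 as a CCT gamma subunit (-0.15, SE 0.19), and RP11-762I7.5, described as DNAJC14 (0.16, SE 0.12). LOC772158 (heat shock protein 30C) and LOC107054649 (DNAJA3) were not tested.

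Cell type markers moved in the same comparison, where 20.4% of all genes tested were called higher and 21.1% lower. Of 17 hepatocyte markers tested 12 were called lower and 2 higher under FE, and their summed level ran from 41204 to 41672 in FCON and from 26866 to 41341 in FE. Macrophage markers were higher for 9 of 14 and lower for 1 (summed 437 to 443 against 691 to 730), T and NK cell markers for 6 of 7 (97.5 to 101 against 326 to 453), B and plasma cell markers for 3 of 4, with 1 lower (13.5 to 15.0 against 57.0 to 61.5), and smooth muscle and stellate markers for 7 of 13, with 1 lower (140 to 169 against 287 to 435). In the T and NK list 1 of the 12 markers was at 0 in all FE livers, and every macrophage and hepatocyte marker was detected in both groups. Their part in the values of the members was not tested, and fewer cells of a type and less RNA per cell cannot be told apart in bulk liver.

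The spread between the FCON livers was small, and with a common spread over all 18 libraries 9 members were called higher and none lower in rooster liver. On deposited FPKM, where the median of all genes moved to -0.76, limma called 4 higher and 39 lower.

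In the liver of day-old offspring no member was called between paternal diets. All 70 members tested had adjusted p of 0.701 or more (edgeR), 1 of them had an unadjusted p under 0.05, and DESeq2 called none. The background was the same, with 0% of 9700 genes called by edgeR (679 at an unadjusted p under 0.05) and 38 genes called by DESeq2. Pools did not overlap between diets for 5 members that were higher and 3 that were lower, and for 13.9% of all genes tested. The 5 members with the smallest p were DNAJC10, DNAJC30, HSP90B1, DNAJB9 and DNAJC13. DNAJC10, a disulfide reductase of the endoplasmic reticulum, stood at 2.58, 2.51 and 1.46 in FCON pools and at 3.72, 5.35 and 3.63 in FE pools, which did not overlap (log2 0.94, SE 0.35). HSP90B1 stood at 77.3, 101 and 36.5 in FCON and at 108, 291 and 81.1 in FE, which overlapped (log2 1.14, SE 0.53). DNAJC30 was at 11.0, 11.3 and 7.30 against 1.82, 6.14 and 6.20, with FE below FCON and FE pool 1 lowest (log2 -1.06, SE 0.48).

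FCON pool 3 stood apart for several members. It held HSP90AA1 at 224, against 51.7 and 43.0 in the other FCON pools and 76.4, 36.7 and 40.8 in FE, and it had the lowest HSPA5 of the offspring livers, at 24.9 against 64.6 and 69.6 in FCON and 73.1, 78.7 and 61.6 in FE. HSPA2 did not follow HSP90AA1 there, with 3.74 in FCON pool 3 against 7.78 and 4.55. HSPA2 was at most 7.78 in any offspring liver, below every rooster liver. In these pools 29.1% of counts were ribosomal in FCON pool 3, the highest share among the offspring. FCON pool 2 had a share of 27.9%, with HSP90AA1 at 43.0 and HSPA5 at 69.6. The part of the ribosomal share in these values was not tested.

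The diet effect in rooster liver minus that in offspring liver was tested in 1 fit of 12 libraries. Of 70 members 12 were called higher and 5 lower, against 18.7% of all 11002 genes called (8.44% higher and 10.2% lower). Called higher were HSPB9, BAG3, HSPA2, HSPH1, HSP90AA1, HSPB8, HSPB1, DNAJC8, DNAJC12, DNAJA1, DNAJA4 and BAG5, and called lower were DNAJC13, DNAJC10, DNAJC1, DNAJC16 and HSPA5. HSP90AA1 was at 2.07 in rooster liver and at -1.06 (SE 0.61) in offspring liver, a difference of 3.13 (SE 0.86, adjusted p = 0.0261, edgeR). HSPA5 was at -0.89 and 0.41 (SE 0.39), a difference of -1.32 (SE 0.42, adjusted p = 0.0475, edgeR). HSPD1 was at 0.82 and -0.12 (SE 0.34), and the difference was not called (adjusted p = 0.0957, edgeR). The number called higher was 7 without rooster FCON library 2 or 3 or rooster FE library 2 or 3, and the number called lower was 2 or 3 without any 1 of the FCON rooster livers or without FE library 3. Without both offspring pools numbered 2, which carry W reads, 3 were called lower.

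**Figure D2:**
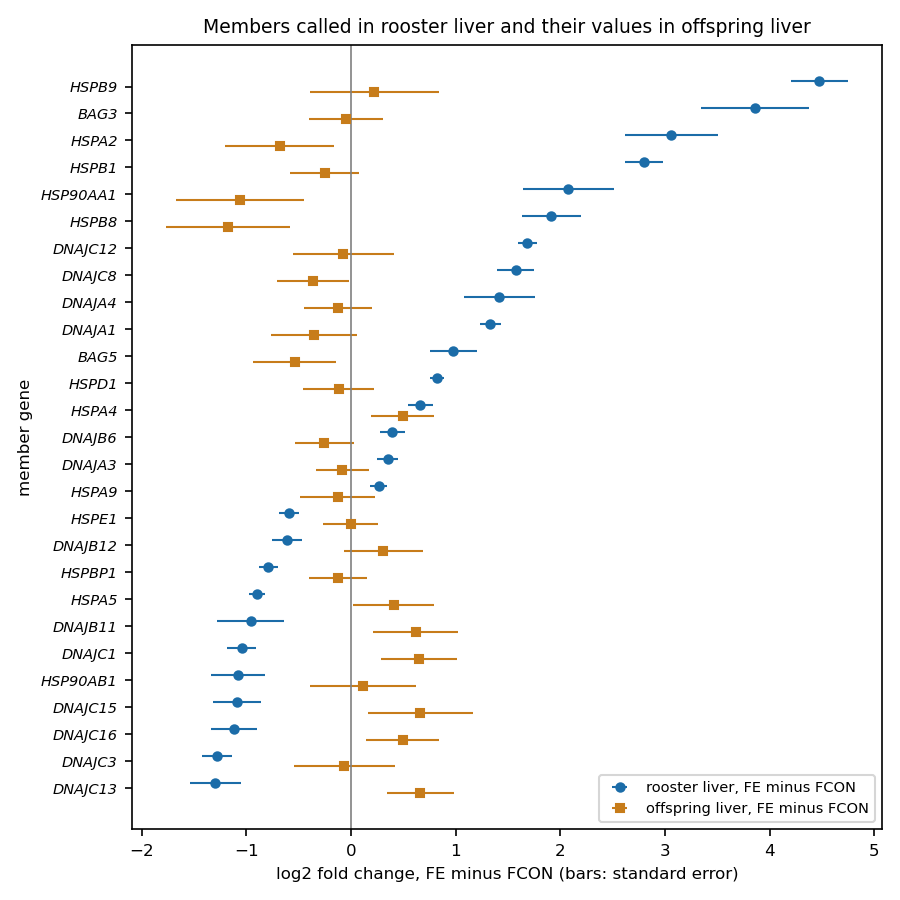
Log2 difference between FE and FCON with its standard error for the 27 members called in rooster liver (blue circles), and the value of the same genes in offspring liver (orange squares). Rooster values run from -1.30 (DNAJC13) to 4.47 (HSPB9), with HSPA4, HSPA9, HSPD1, DNAJA3 and DNAJB6 turning negative on the deposited FPKM scale, and no offspring value was called.

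Between day-old and adult liver 5 of 7 CCT genes were called higher in the chick in each diet, and none lower. The 8 genes grouped under mitochondria were HSPD1, HSPE1, HSPA9, DNAJA3, DNAJC11, DNAJC15, DNAJC19 and DNAJC30. In each diet 5 of them were called higher and none lower, but not the same 5. HSPE1, HSPA9 and DNAJA3 were called in both diets, DNAJC30 in FCON only, and DNAJC11 and DNAJC19 in FE only. HSPD1 was called in FCON (0.99, adjusted p = 0.0216, edgeR) and not in FE (0.047, adjusted p = 0.916). In FCON liver, 19 of 70 members were called higher in offspring and 3 lower (31.4%), against 29.4% of all 10339 genes called (15.6% higher and 13.8% lower). In FE liver, 20 of 69 were higher and 8 lower (40.6%), against 27.4% of 9847 genes (14.7% and 12.8%). The ribosomal share was 3.02 to 8.75% in roosters and 16.4 to 29.1% in chicks in FCON, and 32.8 to 60.5% and 4.70 to 20.4% in FE. All rooster FCON livers carry W reads, while FCON pools 1 and 3 held 8.09 and 4.14 CPM. Age cannot be told apart from the ribosomal share in either diet, nor fully from the W signal in FCON. The 2 comparisons share no library, and 11 members were called higher in both, which is 57.9% of the 19 and 55% of the 20. They were CCT2, CCT3, CCT5, CCT7, CCT8, HSPE1, HSPA9, HSP90AB1, DNAJA3, DNAJC9 and HSPBP1. HSPA2 and DNAJC12 were lower in both. The share of all genes called the same way in both diets is not given, so these counts show nothing particular to the members. Over the 69 members tested in both, Pearson's r of the log2 values was 0.30, where genes are not independent and the rooster livers also differ by diet.

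All 7 CCT genes were positive in both diets and under each scaling tried, and 5 were called in each. CCT8 only just passed in FCON (adjusted p = 0.0498, edgeR). Under other settings or with a library left out, calls were lost for CCT2, CCT7 and CCT8 in FCON and for CCT8 in FE. CCT2 stood at 21.6, 20.9 and 21.9 in rooster FCON liver and at 38.8, 33.0 and 45.7 in offspring FCON liver (log2 0.95, SE 0.18, adjusted p = 0.0104, edgeR). In FE it was at 15.1, 17.4 and 17.0 in roosters and at 57.4, 36.8 and 29.6 in chicks (log2 1.29, SE 0.28, adjusted p = 0.0111, edgeR). In neither diet did rooster and chick values of CCT2 overlap, nor did those of 53.5% of all genes tested in FCON and 47.2% in FE. Members without overlap were 24 higher and 7 lower in FCON chicks, and 23 and 14 in FE chicks. HSPE1 was at 187, 185 and 180 against 315, 334 and 408 in FCON (log2 1.02, SE 0.16, adjusted p = 0.00685, edgeR) and at 103, 120 and 122 against 419, 344 and 303 in FE (log2 1.59, SE 0.22, adjusted p = 0.00180, edgeR). HSP90AB1, low in adult liver, was at 21.9, 9.64 and 8.71 in FCON chicks and at 24.4, 7.00 and 12.7 in FE chicks, above every rooster liver, by 1.80 (SE 0.38) and 2.98 (SE 0.48) on the log2 scale.

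**Figure D3:**
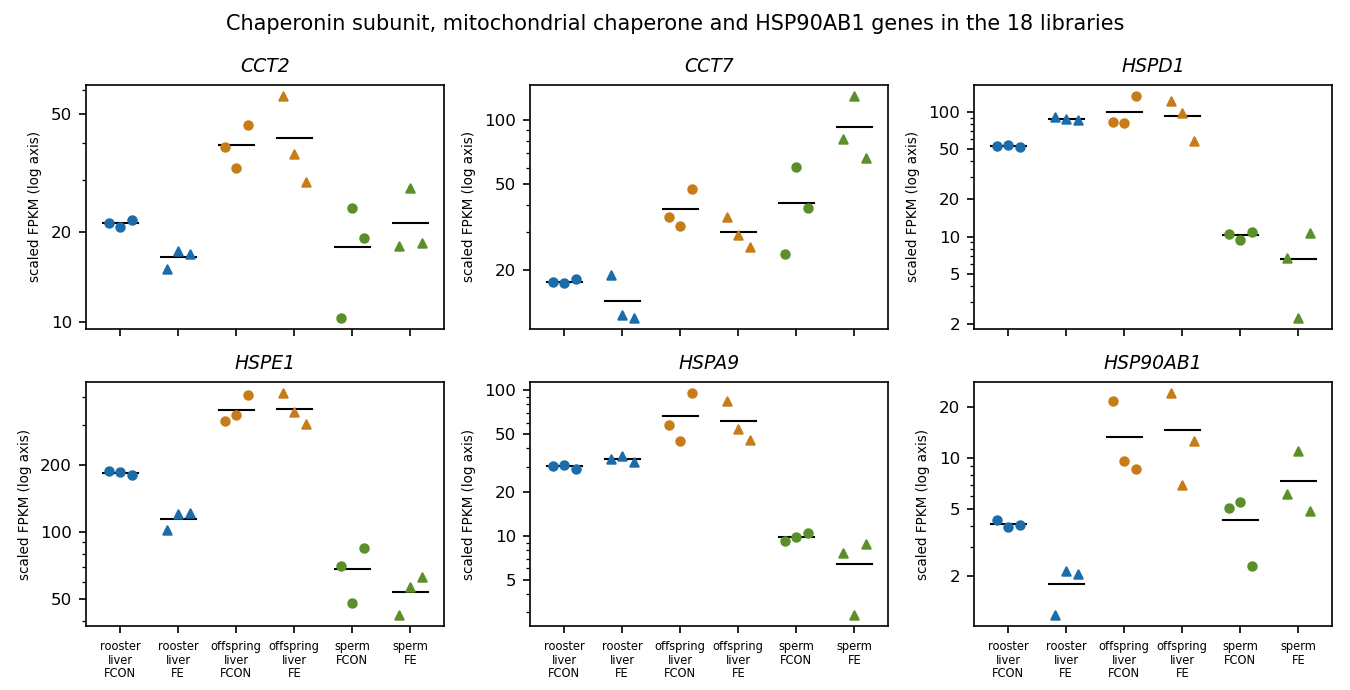
Scaled FPKM on a log axis for 2 CCT subunit genes, 3 mitochondrial chaperone genes and HSP90AB1, with 1 point per library (circles FCON, triangles FE) and a bar at the mean of 3. CCT2, HSPE1, HSPA9 and HSP90AB1 are higher in every offspring liver than in any rooster liver, and HSPD1, HSPE1 and HSPA9 are lowest in sperm.

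The test of whether the age difference depends on diet is the one of the 2 diet effects above, on the same 12 libraries. HSPB1 was higher in chicks than in roosters in FCON (log2 2.43, SE 0.27, adjusted p = 0.00244, edgeR) and not called in FE (-0.64, SE 0.26, adjusted p = 0.0990). BAG3 was higher in FCON chicks (1.43, SE 0.21) and lower in FE chicks (-2.51, SE 0.51). Of the 8 genes grouped under the endoplasmic reticulum none was called by age in FCON liver, where 29.4% of all genes tested were called. In FE liver 7 were called higher, beside 14.7% of all genes tested. Among the 7 were HSPA5 (1.22, SE 0.20), HSP90B1 (2.16, SE 0.50) and DNAJC10 (1.80, SE 0.38). The test of the difference itself called 3 of these 8 genes, and HSP90B1 was not one of them (-1.37, SE 0.65, adjusted p = 0.160, edgeR). HSPA2 was lower in chicks in both diets, with a scaled FPKM of 7.78, 4.55 and 3.74 in FCON pools against 21.8, 24.0 and 22.6 in FCON roosters (adjusted p = 0.00543, edgeR), and a log2 difference of -5.79 (SE 0.67) in FE. Leaving out 1 library changed these counts most in FCON, where 4 members were called higher without rooster FCON library 1 and 3 without library 2 or 3, while 6 were called lower without offspring FCON pool 1. In FE the number called higher was 9 without rooster FE library 2, 8 without library 3 (with 5 lower) and 11 without offspring FE pool 1.

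Some partner genes of the folding machines were called by age as well. Of all genes tested, 15.6% were called higher in chicks and 13.8% lower in FCON, and 14.7% and 12.8% in FE. Prefoldin and CCT partners were higher in chicks for 5 of 13 in FCON and 3 of 13 in FE, none lower, with PFDN2 at 1.16 and 1.01 and PFDN5 at 0.86 and 0.81. Organelle chaperones were higher for 7 of 15 in FCON, none lower, with HTRA2, a mitochondrial protease, at 1.18 and HYOU1, an HSP110 relative of the endoplasmic reticulum, at 1.79. In FE they were higher for 8 of 16 and lower for 1, with PDIA3 at 2.19. Of 21 co-chaperones 7 were higher and 1 lower in FCON (PTGES3, the HSP90 co-chaperone p23, at 0.81) and 3 higher and 1 lower in FE (FKBP5 at 1.82). Stress-induced genes were called lower in chicks for 2 of 10 in FCON (SQSTM1 at -1.15, JUN at -0.70) and for 8 of 10 in FE (HMOX1 at -3.33, SQSTM1 at -2.24), none higher in either.

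Cell type markers also differed by age, beside 29.4% of all genes tested that were called in FCON and 27.4% in FE. Macrophage markers were called lower in chicks for 3 of 14 in FCON, with 1 higher, and for 11 of 14 in FE, none higher, and their summed level was 103 to 287 in FCON pools and 94.2 to 248 in FE pools. T and NK cell markers were lower for 2 of 4 tested in FCON and 4 of 5 in FE, and summed to at most 10.1 in any chick pool, where 4 of the 12 were at 0 in all pools of each diet. GNLY, a granule protein of these cells, was at -4.17 (SE 0.34) and -6.78 (SE 0.36). B and plasma cell markers were lower for 3 of 4 in each diet, with sums of 4.88 to 5.62 and 4.62 to 6.61 and IGLL1 at -10.39 (SE 0.81) and -8.58 (SE 0.95). Hepatocyte markers were lower for 6 of 17 and higher for 1 in FCON, where ALB, the albumin gene, was at -2.92 (SE 0.28), but higher for 6 of 17 and lower for 3 in FE, where AHSG, a plasma glycoprotein, was at 3.76 (SE 0.34), and their sums were 16295 to 36602 in FCON pools and 19277 to 35460 in FE pools. Smooth muscle and stellate markers were higher for 3 of 12 and lower for 2 in FCON, and higher for 2 of 13 and lower for 5 in FE, with sums of 189.6 to 424 and 216 to 228. Erythroid markers were higher for 1 of 6 in each diet and none was lower. The part of these cell types in the members' values was not tested.

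The share of members called between sperm and rooster liver was near that of all genes. In FCON, 25 of 72 members were called higher in sperm than in rooster liver and 16 lower, which is 56.9% of them. Of all 10765 genes 49.6% were called (24.1% higher and 25.5% lower). In FE, 24 of 71 were higher and 12 lower (50.7%), against 52.8% of 9374 genes (29.9% and 22.9%). Sperm and liver values did not overlap for 66.8% of all genes tested in each diet. Members without overlap were 29 higher and 21 lower in FCON, and 29 and 16 in FE. In FCON, genes of the W chromosome held 9.74 to 22.4 CPM in sperm and 1015 to 1117 in rooster liver, so tissue and the W signal cannot be told apart there. The 2 comparisons share no library. Called higher in both were 17 members, 68% of the 25 and 70.8% of the 24, and called lower in both were 9, which is 56.2% of the 16 and 75% of the 12. Here too the share of all genes called the same way in both is not given, so nothing particular to the members is shown. Pearson's r of the log2 values was 0.90 over the 68 members tested in both, given as a description. These include DNAJB8 at 16.7 and 16.5, values that rest on 0 counts in rooster liver and lie far from the others. The value of r depends on that gene and is not given without it.

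DNAJB8 (chromosome 12, 9657256 to 9658489, plus strand), which holds back protein aggregation in mammalian cells, had 0 counts in all 6 rooster livers. In sperm it stood at 44.8, 590 and 89.0 in FCON and at 638, 583 and 350 in FE. Against a floor of 3 counts over the liver group it was at least 25995-fold higher in FCON and at least 10502-fold higher in FE (30380 and 32241 counts in sperm), bounds that cover counting error only. Its model overlaps LOC101750361 on the other strand over 1234 bases, and their reads cannot be told apart. DNAJB13, a J-domain protein of the sperm tail axoneme, stood at 3.85, 25.9 and 7.51 in FCON sperm and 22.7, 42.5 and 9.67 in FE sperm, with 0.624 as the highest rooster liver (log2 4.63, SE 0.83 and 7.30, SE 0.91). BAG2, an HSP70 cofactor that curbs the ubiquitin ligase CHIP, was at 20.0, 20.5 and 14.3 in FCON sperm and at 22.0, 14.3 and 27.7 in FE sperm. In liver it was at most 2.23, so that no sperm library overlapped a liver library (log2 4.92, SE 0.35 and 5.04, SE 1.02).

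HSF1, the main stress-activated heat shock factor, stood at 11.4, 75.1 and 17.0 in FCON sperm and at 71.1, 88.5 and 81.0 in FE sperm. All lay above every liver, whose highest value was 8.44 (log2 2.69, SE 0.76, adjusted p = 0.0262 in FCON and 3.79, SE 0.26, adjusted p = 4.19e-05 in FE, edgeR). The HSF1 model shares 5219 bases with LOC112531891 and 2417 with LOC112531892 on the same strand, and reads of these stretches cannot be told apart. HSF5, a factor of the male germ line in mammals, reached 15.1 in FCON sperm (mean 5.93) and 17.8 in FE sperm (mean 11.8). It stayed at or under 0.331 in every liver. Against rooster liver it was called higher in FE (log2 7.44, SE 1.12) and was not tested in FCON. The HSF5 model shares 4532 bases with LOC112530078 on the other strand. HSPB1 was higher in sperm, at 55.5, 52.9 and 104 in FCON and 60.2, 42.9 and 115 in FE, by 3.77 (SE 0.34) and 1.11 (SE 0.40) over rooster liver. HSPB8 was higher by 3.49 (SE 0.34) and 1.53 (SE 0.37). HSPB2, a muscle-enriched small heat shock protein, had 0 counts in rooster FE liver and 373 in FE sperm, at least 121.5-fold higher, but it shares 1747 bases with CRYAB on the other strand. CCT7 was higher in sperm than in rooster liver in both diets (1.24, SE 0.36 and 2.71, SE 0.35), and so was CCT3 (0.88, SE 0.30, but -0.22 on the deposited FPKM scale, and 1.85, SE 0.24), whereas CCT5 was lower in FCON (-0.91, SE 0.29). LOC101751456, described like CCT3 as a CCT gamma subunit, was not called in FCON (0.014, SE 1.53) and was higher in FE (1.76, SE 0.34).

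Between sperm and rooster liver 25.5% of all genes tested were called lower in FCON and 22.9% in FE, and 24.1% and 29.9% higher. Of the 8 genes grouped under mitochondria 4 were called lower and 2 higher in sperm in each diet, and of those grouped under the endoplasmic reticulum 5 of 8 were called lower in FCON and 2 of 7 in FE, none higher. The higher ones were DNAJC15 (0.84, SE 0.24, but -0.22 on the deposited FPKM scale, and 1.43, SE 0.43) and DNAJC30 (1.63, SE 0.28 and 4.33, SE 1.08), both of mitochondria. HSPD1, which was lower, stood at 10.4, 9.35 and 10.9 in FCON sperm and at 6.75, 2.23 and 10.7 in FE sperm, against 51.8 or more in rooster liver (log2 -2.35, SE 0.18 and -3.70, SE 0.53). HSPA9 differed by -1.58 (SE 0.18) and -2.36 (SE 0.41) and HSPE1 by -1.42 (SE 0.25) and -1.07 (SE 0.25). HSP90B1 was at 10.5, 14.6 and 9.83 in FCON sperm and at 5.46, 6.20 and 13.1 in FE sperm, below every liver (log2 -1.85, SE 0.24 and -2.03, SE 0.44), and HSPA5 was at -1.29 (SE 0.18) and -0.61 (SE 0.20). DNAJC22, a transmembrane J protein, stood between 52.9 and 108 in all 12 livers and at most at 2.26 in sperm (log2 -6.66, SE 1.01 and -5.58, SE 0.57). DNAJC12 was at most 0.837 in sperm and at least 1.64 in liver.

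**Figure D4:**
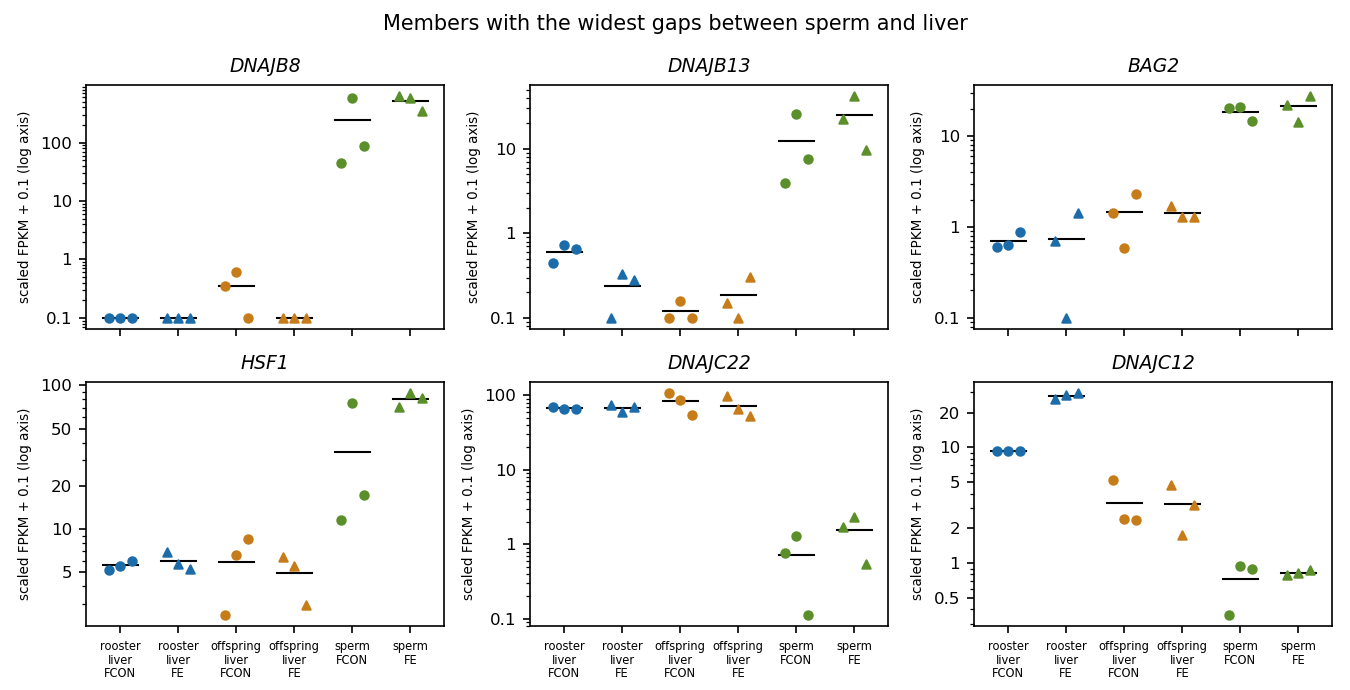
Scaled FPKM + 0.1 on a log axis for 6 members with wide gaps between sperm and liver, with 1 point per library (circles FCON, triangles FE) and a bar at the mean of 3. DNAJB8, DNAJB13, BAG2 and HSF1 are higher in all 6 sperm libraries than in any liver, DNAJC22 and DNAJC12 are lower, and FCON sperm libraries 1 and 3 lie below the other sperm libraries for DNAJB8 and HSF1.

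BAG3 was higher in sperm than in rooster liver in FCON (log2 2.66, SE 0.24, adjusted p = 0.000586, edgeR) and lower in FE (-1.45, SE 0.49, adjusted p = 0.0366), and its sperm levels overlapped between diets, at 14.6, 10.1 and 14.1 in FCON and 10.1, 10.6 and 10.0 in FE. HSPA8 was higher in sperm in FCON (0.92, SE 0.24, adjusted p = 0.0195; -0.16 on the deposited FPKM scale) and not called in FE (0.31, SE 0.40, adjusted p = 0.537). HSP90AA1 was higher in FCON (1.14, SE 0.38, adjusted p = 0.0463; -0.024 on the deposited FPKM scale) and was at -0.63 (SE 0.48, adjusted p = 0.294) in FE. Whether the sperm-liver difference depends on diet was not tested. The number called higher in FCON was 10 without any 1 of the rooster FCON livers, and 10 were called lower without library 1 or 3. In FE 6 were called lower without rooster FE library 3.

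**Figure D5:**
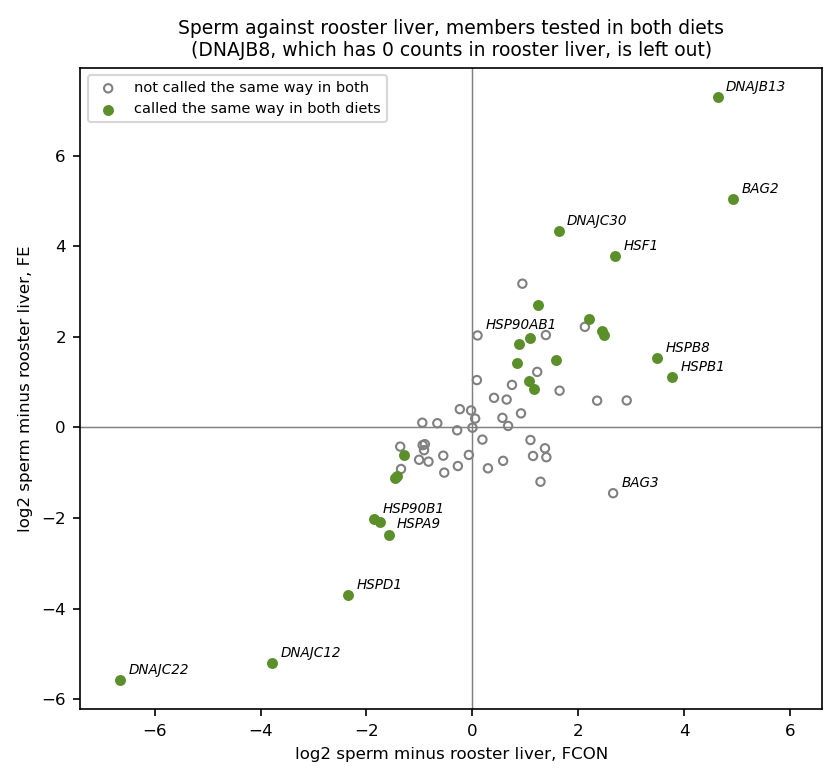
Log2 difference between sperm and rooster liver in FCON (horizontal axis) and FE (vertical axis), 1 point per member tested in both diets, with members called the same way in both filled. DNAJB8, which was called higher in both diets and had 0 counts in rooster liver, is left out. DNAJB13, BAG2 and HSF1 are high in both, DNAJC22, DNAJC12 and HSPD1 are low in both, and BAG3 is positive in FCON and negative in FE.

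Of all genes tested, 24.1% were called higher in sperm than in rooster liver and 25.5% lower in FCON, and 29.9% and 22.9% in FE. Among partners, organelle chaperones were lower in sperm for 10 of 16 in FCON and 9 of 15 in FE, none higher, with PDIA3 at -2.57, CANX, the membrane lectin calnexin, at -1.92, CLPX at -2.22 and GRPEL1, the exchange factor of HSPA9, at -1.55 in FE. Prefoldin and CCT partners were higher for 3 of 13 and lower for 1 in each diet, with TBCB at 1.80 and 1.65 and TBCC at 1.57 and 1.92. Co-chaperones were higher for 4 of 21 and lower for 2 in FCON, with STUB1, the ubiquitin ligase CHIP, at 2.12 and SGTA at -1.14. In FE they were higher for 6 of 20 and lower for 3, with AHSA1, the activator of HSP90, at 1.57 and HSPBP1 at 1.98. Stress-induced genes were higher for 3 of 12 and lower for 3 in FCON (GADD45B at -2.86 and ATF3 at 4.10) and higher for 2 and lower for 4 of 12 in FE (HMOX1 at -4.75 and GADD45B at -3.91).

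In sperm no member was called between diets by edgeR or DESeq2, and none of the 8811 genes tested was called by either (background 0%; 296 genes and 3 of 68 members at an unadjusted p under 0.05 by edgeR). The 5 members with the smallest p were DNAJC30, HSPB9, CCT7, DNAJC19 and HSF1. HSPB9 stood at 10.1, 34.3 and 8.38 in FCON and at 43.0, 128 and 29.4 in FE, which overlapped (log2 1.85, SE 0.75, adjusted p = 0.902, edgeR). CCT7 did not overlap, at 23.6, 60.1 and 38.9 against 81.8, 130 and 66.5 (log2 1.11). Without overlap between diets were 3 members that were higher, 5 that were lower and 10.2% of all genes tested. DNAJC30, a mitochondrial J protein, reached 292 in FE library 2, where 50.2% of counts were ribosomal, against 12.7 to 27.3 in the other sperm libraries. FCON library 2 resembled the FE libraries for several members, with DNAJB8 at 590, HSF1 at 75.1 and HSF5 at 15.1. Without it 3 of 64 members were called higher under FE (HSF5 3.10, SE 0.59, DNAJB8 2.89, SE 0.51 and HSF1 2.43, SE 0.39) and 182 of 7860 genes in all. These are the members by which that library was set apart, so their calls follow from the choice of library and cannot decide on diet. With all libraries each of them was at an adjusted p of 0.902 or more (edgeR). The summed level of the spermatid and sperm markers was likewise lowest in FCON libraries 1 and 3, with 130, 1233 and 221 in FCON and 1208, 1264 and 736 in FE. T and NK cell markers summed to 67.8, 314 and 105 against 194, 515 and 178. Of these 12 markers 4 were at 0 in all FE sperm libraries. The tested GNLY (0.84, SE 0.70) and CD3D (-0.85, SE 0.72) went opposite ways, and neither was called. The part of these marker lists in the members' values was not tested.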

How the data were processed

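The authors deposited FPKM and estimated counts for each gene of the 18 libraries. Per the submitters' processing notes the tools were cutadapt, HISAT2 and StringTie, with no version or order. The genome build is not given in the sources used here. Coordinates are those of the deposited table. Per the labels' protocols the libraries are oligo-dT selected and paired-end, with no strand marking stated, so the 29 members whose models overlap another gene can share its reads. Deposited FPKM is relative to each library total, ribosomal RNA genes included, and a high ribosomal share lowers all other values. A large share of any other gene does the same. LOC112530621, not counted as ribosomal, took 23.5 to 45.3% of the counts in every sperm library but FE library 2, where another gene ranked first.

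The estimated counts, whole numbers as deposited, were tested with edgeR 4.0.16 (R 4.3.3) by its quasi-likelihood test with TMM scaling, 1 mean per group and only the libraries of each comparison. A gene was tested at an FPKM of 1 or more in at least 3 libraries of the fit, and adjusted p is Benjamini-Hochberg over all genes tested, in every sentence that gives one. Levels shown are deposited FPKM divided by TMM factors over 18 libraries. limma 3.58.1 on log2(FPKM + 1) with a pseudocount of 1, DESeq2 1.42.0 and the other settings served as alternatives. Figures used Python 3.11.15 and matplotlib 3.10.9. The scripts were tested on simulated data.

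Members and lists were chosen with earlier results of these data known. Named are a panel of members, the 8 largest rises and falls among called members of each comparison with mean FPKM of at least 2 (5 smallest p where none is called), all members called in the difference of diet effects, and the 2 smallest p of each partner list. Other members are named as examples, chosen after their values were seen. Replicates of each group differed by more than counting noise, so none was counted as a copy of another library. That measure cannot show that replicates come from different birds or pools, since library preparation also adds spread. The median ratio to counting noise was 6.84 to 7.12 between the rooster FCON livers and 13.3 or more between replicates of every other group. Sperm libraries with the same number correlated after removal of group means (0.12, 0.18 and 0.24). In offspring liver a value of that size fell on unlike numbers (0.23, FCON pool 3 with FE pool 1). Whether the numbers pair sperm libraries therefore cannot be told from these values. Same-numbered libraries showed no such pattern in the other groups compared.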

Additional observations from a re-analysis of the deposited data

Results flagged for a closer look

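For 17 of 70 members (24.3%, against 18.7% of all 11002 genes tested) the diet effect in rooster liver differed from that in offspring liver by a test of the difference itself (edgeR, Benjamini-Hochberg adjusted p under 0.05, 12 libraries). The differences in log2 units, rooster minus offspring, were 4.24 for HSPB9, 3.90 for BAG3, 3.74 for HSPA2, 3.17 for HSPH1, 3.13 for HSP90AA1, 3.08 for HSPB8, 3.04 for HSPB1, 1.92 for DNAJC8, 1.74 for DNAJC12, 1.67 for DNAJA1, 1.53 for DNAJA4 and 1.50 for BAG5. Negative differences were -1.97 for DNAJC13, -1.72 for DNAJC10, -1.71 for DNAJC1, -1.63 for DNAJC16 and -1.32 for HSPA5. The rooster arm of each rests on the livers labelled FCON that carry reads of the W chromosome.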

How the results depend on the processing

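The counts of members called (higher and lower) moved by more than 1.5 times under these settings. With limma on deposited FPKM they were 4 and 39 in rooster liver by diet, 5 and 35 in the difference of diet effects, 7 and 9 by age in FCON, 39 and 5 by age in FE, 8 higher for sperm against liver in FCON, and 12 and 7 in FE. With all 18 libraries in 1 fit they were 9 and 0 in rooster liver, 1 lower in the difference, and 12 and 1 by age in FCON. With limma on equal medians, sperm against liver in FE had 19 lower. Without both offspring pools numbered 2 the difference had 3 lower. With the replicate number as a block, 11 were higher by age in FCON, and 15 higher and 10 lower for sperm against liver in FCON. The block changed no call on diet in sperm. The other counts stayed within 1.5 times under relative log expression scaling, no filter, DESeq2 and ribosomal genes left out.

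Leaving out 1 library gave, from lowest to highest, 11 to 22 higher and 10 to 16 lower in rooster liver, 0 in offspring liver, 0 to 3 higher and 0 lower in sperm, 7 to 12 and 2 to 7 in the difference, 3 to 25 and 2 to 6 by age in FCON, 8 to 22 and 5 to 9 in FE, 10 to 27 and 10 to 17 for sperm against liver in FCON, and 17 to 20 and 6 to 13 in FE.

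Signs turned under limma on deposited FPKM in rooster liver for HSPA8 (-0.39), HSPA4 (-0.27), HSPA4L (-0.36), HSPA9 (-0.69), HSPD1 (-0.15), DNAJA3 (-0.58), DNAJA2 (-0.75), DNAJB6 (-0.52), HSF1 (-0.68) and HSF3 (-0.57), and for sperm against liver in FCON for HSPA8 (-0.16), HSP90AA1 (-0.024), CCT3 (-0.22), DNAJC15 (-0.22), BAG4 (-0.31), DNAJC18 (-0.0075) and HSPBP1 (-0.033). No other called member turned sign under another scaling in any comparison. HSF2 ran from -0.83 to 0.091 in rooster liver when 1 library was left out, the sign turning without FE library 1. On that scale the median of all genes itself moved by -0.76 in rooster liver and -0.87 for sperm against FCON liver. With 3 libraries a group, a p above the threshold does not show that a member is equal between diets.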
